A study of Homo sapiens with 2 samples.

Results

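The genes described here are 37 members of the amino acid stress programme run by the transcription factor ATF4, chosen by name as known genes of that programme, with earlier results of these data in view, and found by their Ensembl gene ID. Of the 37, 36 had a row among the 18394 genes of the deposited table. The table used here held no row under the ID of ATF4 itself (ENSG00000128272_at), so ATF4 is not analysed here.

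The study measured RNA of MDA-MB-231(SA), a variant known for forming bone metastases in mice, and of the parental MDA-MB-231 line it comes from, a human breast cancer line that lacks the oestrogen receptor. Both were grown under the same labelled conditions, in DMEM with 1000 mg/L glucose and 10% inactivated fetal bovine serum, to which antibiotics and 1% nonessential amino acids had been added, and the labels name no treatment. Each line had 1 culture on 1 Affymetrix array, so the differences have no replicate check and none could be tested. A property of the line, the state of its culture at harvest and the array itself cannot be told apart.

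Cells that run short of an amino acid carry uncharged tRNA, which activates the kinase GCN2. Stress in the endoplasmic reticulum activates the kinase PERK, and both kinases phosphorylate the translation factor eIF2α. General protein synthesis then slows while ATF4 mRNA is translated more. ATF4 pairs with C/EBP proteins and binds composite C/EBP-ATF elements near genes for amino acid synthesis, amino acid uptake, tRNA charging and feedback.

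Most of the measured genes of the programme had a higher level in the SA variant than in the parental line. A gene was compared when its level reached a floor of 5.62 on the log2 scale, the median of all values, on at least 1 array, and it was counted as higher or lower at a 2-fold difference. Of the 36 genes with a row, 34 were compared and 21 passed that size upwards in the SA variant, while 0 passed it downwards. Among all 9725 genes compared, 5.75% passed it upwards and 4.17% downwards. Since the members were chosen with earlier results of these data known, the distance between these shares is a description and no independent evidence. Without a floor, 21 of the 36 were higher and 0 lower, against 3.50% and 2.50% of all 18394 genes. The difference was above 0 for 34 of the 36, and its median over the 36 was 1.13 on the log2 scale, or 2.19-fold. Over all 18394 genes the median difference was -0.0045, and 49.4% lay above 0. For the 34 members compared the median was 1.16, and 32 lay above 0. The median difference of all genes compared was 0.045, and 53.8% of them lay above 0.

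The size of the difference varied widely within the programme. At least 4-fold higher were 5 members, against 1.10% of all genes compared, and 0 were at least 4-fold lower, against 0.607%. With a 1.5-fold size, 29 members were higher, against 15.8% of all genes compared, and 1 was lower, against 11.8%. In the order of all genes compared from the highest difference down, 19 of the 34 compared members stood among the first 486 genes (5%) and 27 among the first 972 (10%).

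**Figure D1:**
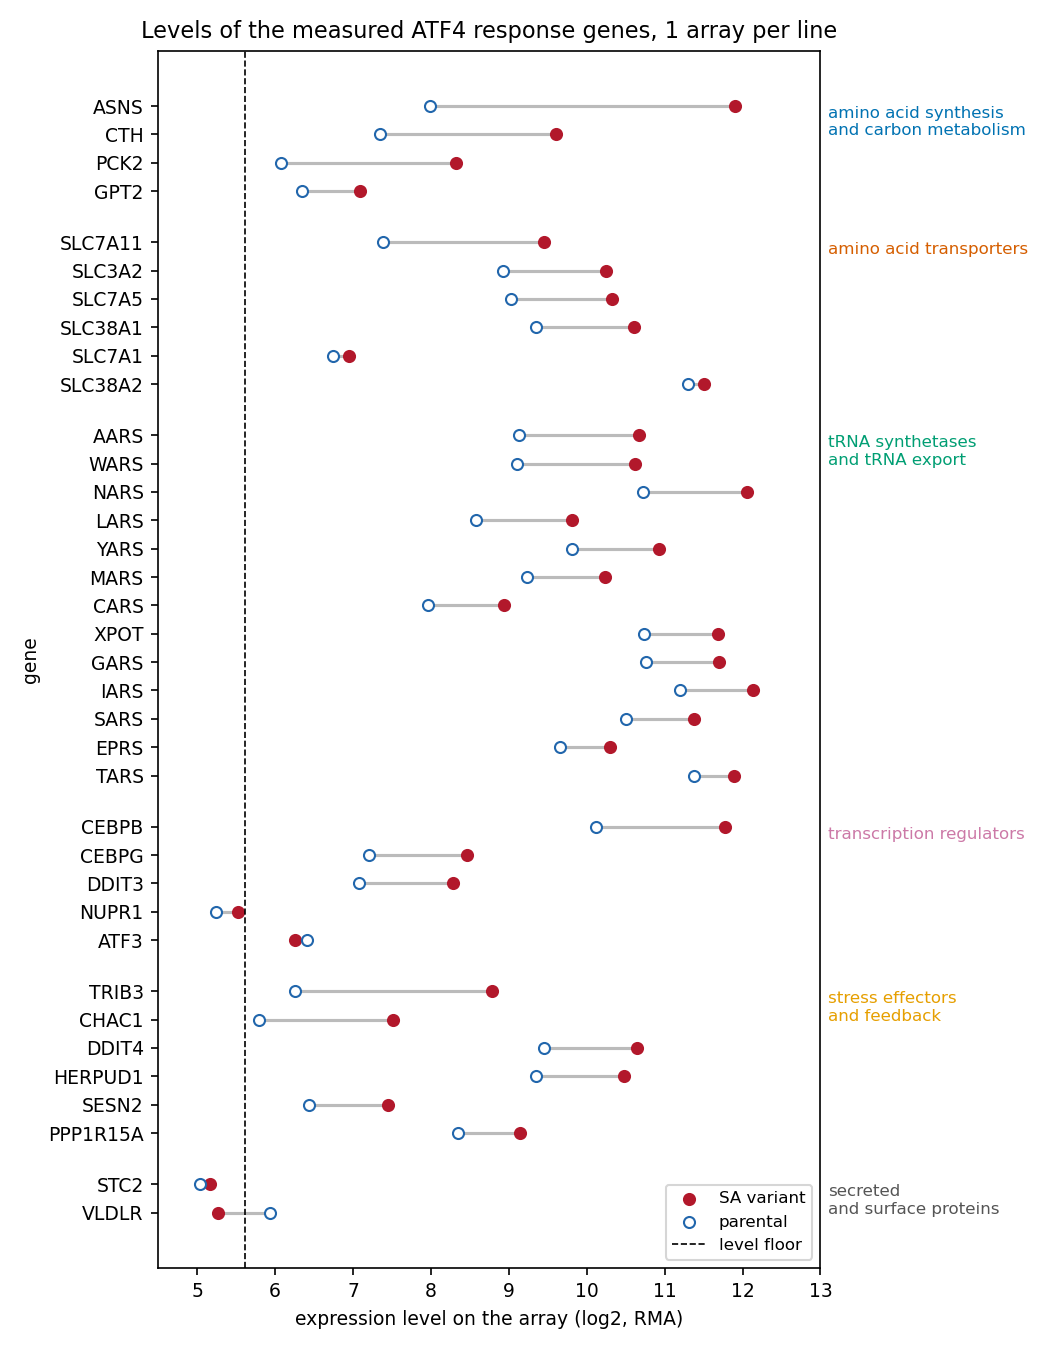
Expression level on the array (log2, horizontal axis) of the 36 measured genes (vertical axis, grouped by role) in the SA variant (filled points) and the parental line (open points), with 1 array per line and the level floor of 5.62 as a dashed line. The SA point lies to the right of the parental point for 34 genes, and to the left for ATF3 and VLDLR.

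**Figure D2:**
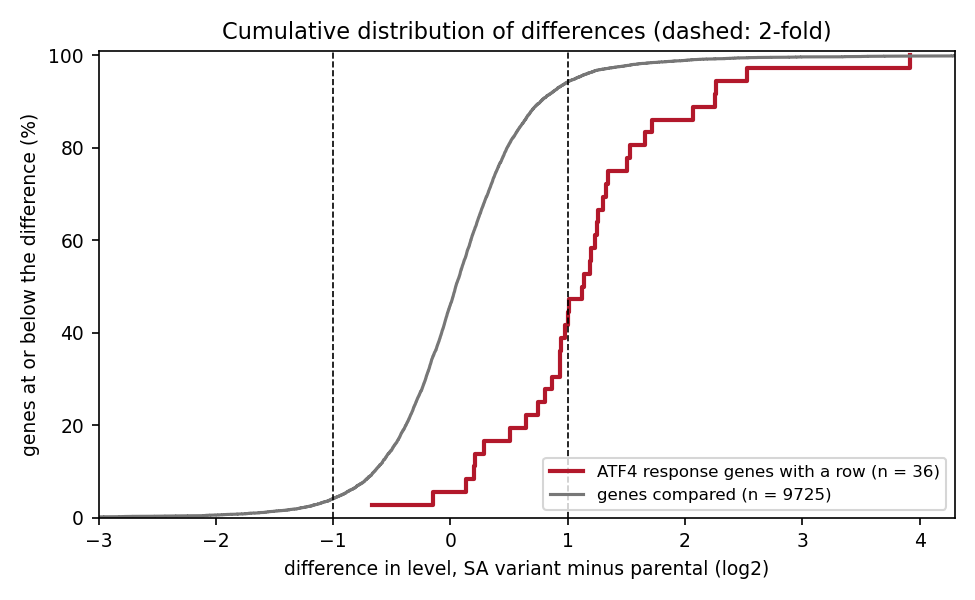
Share of genes (percent, vertical axis) at or below a given difference, SA variant minus parental (log2, horizontal axis), for the 36 measured ATF4 response genes and for the 9725 genes compared. The medians are 1.13 and 0.045, and the dashed lines mark 2-fold. The 36 include STC2 and NUPR1, which lay below the floor and were not compared.

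The promoters of these genes were read for the C/EBP-ATF element that ATF4 binds, because many genes of the programme are known to carry it. RefSeq promoter windows on the GRCh38.p14 build, from 250 bases before to 50 bases after an annotated start, were found for 31 of the 36 genes, and 13 of these had more than 1 start. No window was found for SLC7A11, NUPR1, YARS, LARS and GPT2. The letters searched were TGATGNAA on both strands. They occurred near 15 of the 31 genes (48.4%), against 571 of 15843 protein-coding genes in the same table (3.60%). Counted by window, a match was in 15 of 46 windows of the members and in 3.62% of all 35116 windows. The members were chosen as known genes of this programme, many of which are known to carry the element. The distance between these shares is therefore a description and no independent evidence. A match is a description of these letters and does not show that a factor binds there.

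The following 10 windows show how the element looks in 8 members past the 2-fold size, of which MARS lies just past it. The other pair, SLC7A1 and ATF3, are not past it. These windows are a choice: of all 15 genes with a match, 9 were past that size and 6 were not. Among all genes compared, 5.75% were past it upwards. Each window is written on the strand of its gene with the match in capitals. A match on the opposite strand reads as its reverse complement, which begins with TT and ends in CATCA.
ASNS, chr7:97872453-97872492, minus strand: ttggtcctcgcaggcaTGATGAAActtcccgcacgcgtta
CHAC1, chr15:40953246-40953285, plus strand: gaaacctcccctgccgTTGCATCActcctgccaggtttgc
CEBPG, chr19:33374055-33374094, plus strand: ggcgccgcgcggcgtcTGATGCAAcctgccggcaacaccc
AARS, chr16:70289670-70289709, minus strand: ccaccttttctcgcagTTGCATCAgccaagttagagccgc
NARS, chr18:57621799-57621838, minus strand: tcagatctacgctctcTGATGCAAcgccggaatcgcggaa
MARS, chr12:57488048-57488087, plus strand: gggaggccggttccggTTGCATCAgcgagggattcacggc
HERPUD1, chr16:56931950-56931989, plus strand: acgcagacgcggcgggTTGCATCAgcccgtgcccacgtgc
SLC38A1, chr12:46266497-46266536, minus strand: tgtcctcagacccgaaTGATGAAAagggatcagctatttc
SLC7A1, chr13:29595658-29595697, minus strand: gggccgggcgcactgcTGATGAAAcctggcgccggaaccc
ATF3, chr1:212565200-212565239, plus strand: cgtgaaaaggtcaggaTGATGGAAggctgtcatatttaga

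The 15 matches were not all alike. The form TGATGCAA made up 9 of them, in CHAC1, CEBPG, AARS, NARS, MARS, TARS, IARS, CARS and HERPUD1, and it occurred in 0.866% of all windows. The form TGATGAAA made up 4, in ASNS, GARS, SLC7A1 and SLC38A1, and it occurred in 1.11% of all windows. ATF3 held TGATGGAA and SLC3A2 held TGATGTAA. Of the 15, 10 lay at least partly within 50 bases of an annotated start and 4 lay more than 150 bases before it (CHAC1, AARS, HERPUD1 and ATF3). The match of ASNS lay between, at bases -68 to -61 relative to its start. Of the 12 synthetases, 7 held a match (AARS, CARS, GARS, IARS, MARS, NARS and TARS), while YARS and LARS had no window to search.

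Genes with and without the element in these windows had similar differences. The 15 genes with a match had a median difference, SA minus parental, of 1.14 and ran from -0.15 to 3.92. The 16 genes without a match had a median of 1.10 and ran from -0.67 to 2.53. In each set 9 genes reached 2-fold upwards, against 5.75% of all genes compared. TRIB3, CTH and PCK2, with some of the largest differences, had no match in this window, and neither had DDIT3. The endoplasmic reticulum stress element, with CCAAT and CCACG 9 bases apart, was found near 0 of the 31 genes and near 0.133% of protein-coding genes. At so low a share, 0 matches in 31 genes decide nothing. Only these exact letters were searched, and only from 250 bases before to 50 bases after an annotated start. Related forms of the element, and elements outside these windows, would be missed. Genes without a match here may still carry the element, so these medians do not compare carriers with genes that lack it.

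**Figure D3:**
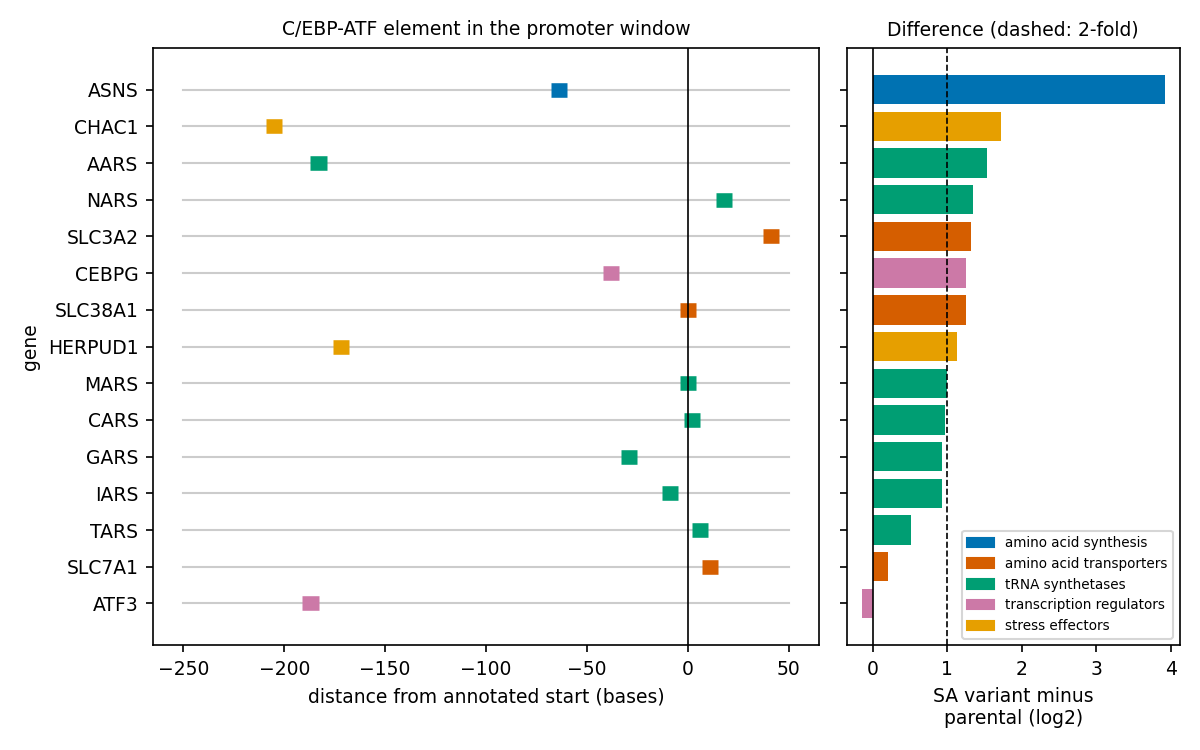
Left, position of the C/EBP-ATF element (coloured blocks) relative to the annotated start (0 on the horizontal axis, in bases) for the 15 genes with a match, from 250 bases before to 50 after the start. Right, difference in level, SA variant minus parental (log2), for the same genes, from 3.92 for ASNS to -0.15 for ATF3, with the dashed line at 2-fold.

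The enzymes of amino acid synthesis and linked carbon metabolism had the largest median difference of the roles. Of the 4, 3 passed the 2-fold size upwards, against 5.75% of all genes compared. All 3 were more than 4-fold higher, against 1.10% of all genes compared at that size. The median difference of the 4 was 2.26. ASNS (ENSG00000070669_at), which makes asparagine from aspartate and glutamine, had a level of 11.90 in the SA variant and 7.98 in the parental line. Its difference of 3.92 (15.1-fold higher) was the largest of the programme and stood at rank 15 of the 9725 genes compared.

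CTH (ENSG00000116761_at), cystathionine gamma-lyase, releases cysteine in the last step of the route from methionine. Its level was 9.60 in the SA variant and 7.34 in the parental line, a difference of 2.26 (4.80-fold higher). PCK2 (ENSG00000100889_at), the mitochondrial phosphoenolpyruvate carboxykinase, had a level of 8.33 in the SA variant and 6.07 in the parental line, a difference of 2.25 (4.77-fold higher). CTH and PCK2 stood next to each other in the order of all genes compared, at ranks 72 and 73. GPT2 (ENSG00000166123_at), the mitochondrial alanine aminotransferase, lay below the 2-fold size, at 7.09 in the SA variant and 6.35 in the parental line (1.67-fold higher).

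Of the 6 amino acid transporters, 4 passed the 2-fold size upwards in the SA variant, against 5.75% of all genes compared. The other 2 differed by less than 1.2-fold. SLC7A11 (ENSG00000151012_at), the light chain of the exchanger that takes up cystine for glutamate, was at 9.46 in the SA variant and 7.38 in the parental line, a difference of 2.07 (4.20-fold higher). SLC7A5 (ENSG00000103257_at), the light chain of the exchanger for large neutral amino acids such as leucine, was at 10.33 in the SA variant and 9.03 in the parental line (2.46-fold higher). SLC3A2 (ENSG00000168003_at), the heavy chain that carries both of these light chains to the cell surface, was at 10.25 in the SA variant and 8.93 in the parental line (2.50-fold higher). The heavy chain and SLC7A5 thus had nearly the same difference, 1.32 and 1.30, while that of SLC7A11 was larger.

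The sodium-coupled transporters of neutral amino acids SLC38A1 and SLC38A2 are close relatives and did not show the same difference. SLC38A1 (ENSG00000111371_at) was at 10.60 in the SA variant and 9.35 in the parental line (2.38-fold higher). SLC38A2 (ENSG00000134294_at), which amino acid starvation is known to induce, was at 11.51 in the SA variant and 11.31 in the parental line (1.15-fold higher). SLC7A1 (ENSG00000139514_at), the carrier of arginine and lysine, was at 6.95 in the SA variant and 6.74 in the parental line (1.16-fold higher), and its promoter window holds the same element letters as that of ASNS.

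All 12 aminoacyl-tRNA synthetases, the enzymes that load amino acids onto tRNA, and the tRNA exporter XPOT had a higher level in the SA variant, within a narrow range. The 13 differences ran from 0.51 to 1.53, with a median of 0.97. Of the 13, 6 were at least 2-fold higher, against 5.75% of all genes compared. These enzymes work in the cytoplasm, and GARS also supplies mitochondria. Every one of the 13 lay above the floor on both arrays.

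The largest difference among the synthetases was that of AARS (ENSG00000090861_at), for alanine, at 10.67 in the SA variant and 9.13 in the parental line (2.90-fold higher). WARS (ENSG00000140105_at), for tryptophan and also known as a gene induced by interferon gamma, followed at 10.62 in the SA variant and 9.11 in the parental line (2.85-fold higher). NARS (ENSG00000134440_at), for asparagine, was at 12.06 in the SA variant and 10.72 in the parental line (2.54-fold higher). NARS uses the amino acid that ASNS makes, and both genes lay well above the 2-fold size.

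LARS (ENSG00000133706_at), for leucine, was 2.35-fold higher, with levels of 9.82 in the SA variant and 8.58 in the parental line. YARS (ENSG00000134684_at), for tyrosine, was 2.18-fold higher, with levels of 10.93 in the SA variant and 9.81 in the parental line. MARS (ENSG00000166986_at), for methionine, lay just past the size rule with a difference of 1.003, with levels of 10.23 in the SA variant and 9.23 in the parental line. Just short of the rule lay CARS (ENSG00000110619_at), for cysteine, at 1.96-fold, with levels of 8.93 in the SA variant and 7.96 in the parental line. The 2-fold rule therefore divides a continuous run of values here.

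XPOT (ENSG00000184575_at), which carries tRNA out of the nucleus, was 1.93-fold higher, at 11.68 in the SA variant and 10.73 in the parental line. GARS (ENSG00000106105_at), for glycine, was at 11.69 in the SA variant and 10.76 in the parental line (1.91-fold higher). IARS (ENSG00000196305_at), for isoleucine, was at 12.13 in the SA variant and 11.20 in the parental line (1.91-fold higher). These 3 differed by almost the same amount. SARS (ENSG00000031698_at), for serine, was at 11.38 in the SA variant and 10.51 in the parental line (1.82-fold higher). EPRS (ENSG00000136628_at), a joint enzyme for glutamate and proline, was at 10.30 in the SA variant and 9.66 in the parental line (1.56-fold higher). The smallest difference was that of TARS (ENSG00000113407_at), for threonine, at 11.89 in the SA variant and 11.38 in the parental line (1.42-fold higher).

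The synthetases did not separate by the kind of amino acid they load. The 6 that load a single nonessential amino acid (AARS, GARS, SARS, NARS, CARS and YARS) had a median difference of 1.05, from 0.87 to 1.53. EPRS, which loads glutamate and proline, both nonessential, was not placed in either set. Its difference of 0.65 lay below the range of these 6. The 5 for essential amino acids (WARS, MARS, TARS, LARS and IARS) had a median of 1.00, from 0.51 to 1.51. The ranges overlap over most of their length.

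Of the 5 transcription regulators measured, 4 were compared and 3 passed the 2-fold size upwards, against 5.75% of all genes compared. CEBPB (ENSG00000172216_at), a C/EBP protein that can pair with ATF4, was at 11.78 in the SA variant and 10.12 in the parental line, a difference of 1.66 (3.15-fold higher). CEBPG (ENSG00000153879_at), another C/EBP partner of ATF4, was at 8.46 in the SA variant and 7.20 in the parental line (2.39-fold higher). DDIT3 (ENSG00000175197_at), also called CHOP and linked to cell death under lasting stress, was at 8.28 in the SA variant and 7.08 in the parental line (2.30-fold higher). The C/EBP-family genes in the programme, CEBPB, CEBPG and DDIT3, were thus all higher.

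ATF3 (ENSG00000162772_at), a rapidly induced stress factor, was not among the higher genes. It was at 6.26 in the SA variant and 6.40 in the parental line, a difference of -0.15. NUPR1 (ENSG00000176046_at), a small stress-induced chromatin protein, was at 5.52 in the SA variant and 5.24 in the parental line, below the floor on both arrays, so it was not compared.

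The stress effectors and feedback genes were all higher in the SA variant, with a median difference of 1.16. Of the 6, 5 were at least 2-fold higher, against 5.75% of all genes compared. TRIB3 (ENSG00000101255_at), a pseudokinase that ATF4 and CHOP induce and that restrains both, was at 8.78 in the SA variant and 6.26 in the parental line, a difference of 2.53 (5.77-fold higher). It was the second-ranked gene of the programme after ASNS. CHAC1 (ENSG00000128965_at), which breaks down glutathione, was at 7.51 in the SA variant and 5.79 in the parental line (3.29-fold higher). Its parental level lay close to the floor, where RMA values hold more background and differences tend to be understated. The parental levels of PCK2 (6.07) and TRIB3 (6.26) lay further above the floor but were also low. With 1 array per line the spread of such dim values is unknown, so 3.29-fold is not a lower limit. The same holds for the folds of PCK2 and TRIB3.

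DDIT4 and SESN2 both hold back the growth kinase complex mTORC1, SESN2 as a sensor of leucine. DDIT4 (ENSG00000168209_at) was at 10.65 in the SA variant and 9.45 in the parental line (2.29-fold higher). SESN2 (ENSG00000130766_at) was at 7.45 in the SA variant and 6.44 in the parental line, just past the size rule at 2.02-fold. HERPUD1 (ENSG00000051108_at), which helps clear misfolded proteins from the endoplasmic reticulum, was at 10.48 in the SA variant and 9.35 in the parental line (2.20-fold higher). PPP1R15A (ENSG00000087074_at), the phosphatase subunit that reverses eIF2α phosphorylation, was below the 2-fold size, at 9.15 in the SA variant and 8.34 in the parental line (1.75-fold higher). MARS and SESN2 fell below 2-fold when the arrays were centred on each other. The count of higher members was then 19, against 5.21% of all genes compared.

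The secreted and surface proteins were not among the higher genes. VLDLR (ENSG00000147852_at), a receptor for lipoproteins, was at 5.26 in the SA variant, below the floor, and at 5.94 in the parental line, a difference of -0.67. It was the only measured member that passed the 1.5-fold size downwards, and it was compared only because its parental level reached the floor. STC2 (ENSG00000113739_at), a secreted glycoprotein, was at 5.17 in the SA variant and 5.03 in the parental line, below the floor on both arrays. The dim signal of VLDLR, STC2 and NUPR1 limits how their differences can be read.

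The members compared, higher or not, lay mainly among the brighter genes. When the genes compared were divided by mean level into 5 classes of 1945, 20 members fell in the brightest class, and 13 of them were at least 2-fold higher, against 4.32% of all genes in that class. In the middle class all 4 members were at least 2-fold higher, against 4.99% of its genes, and in the class between these, 2 of 4 were, against 4.47%. In the class next to the dimmest 2 of 5 members reached that size, CHAC1 and SESN2, against 6.32% of its genes. In the dimmest class 0 of 1 did (VLDLR), against 8.64%. Dim genes could be compared through the 1 array where they were higher, so the share of this class depends on that filter. With the floor required on both arrays, the share of all genes compared that were at least 2-fold higher was 4.13%, against 5.75% in the main setting.

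**Figure D4:**
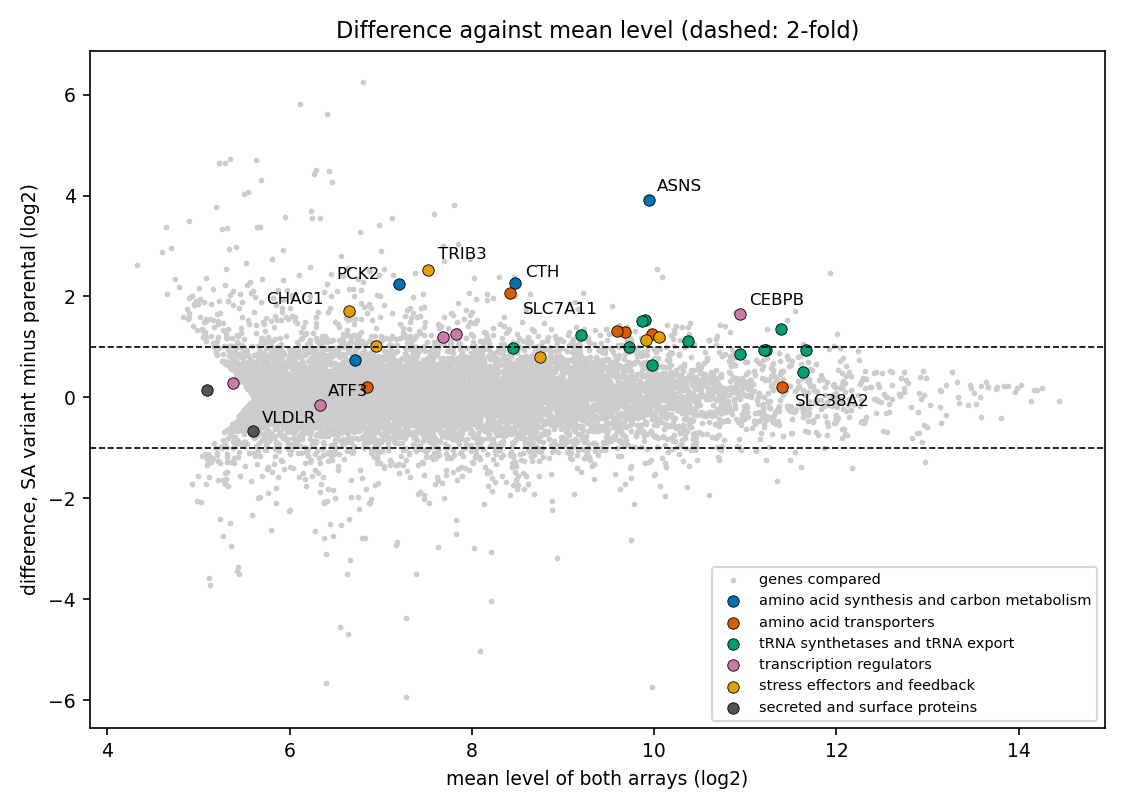
Difference in level, SA variant minus parental (log2, vertical axis), against the mean level of both arrays (log2, horizontal axis) for the 9725 genes compared (grey) and the 36 measured ATF4 response genes, coloured by role. ASNS stands at 3.92, most members of middle and high level lie along or above the upper 2-fold line, and of the members with a mean level below 7.03 only CHAC1 and SESN2 do, while ATF3 and VLDLR lie below 0.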

How the data were processed

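The authors deposited a table of log2 expression levels, with 1 array per line. RMA, which corrects background, makes the distributions of arrays alike and summarises probes, is named in the submitters' processing notes. Array model, probe grouping and log base were not given in the sources used here. Base 2 was taken because values ran from 2.50 to 14.5. RMA pulls differences of dim genes towards 0. From the deposited values the difference SA minus parental was computed per gene (Python 3.11.15, pandas 2.3.3, statsmodels 0.14.6), and a fold is 2 to the power of it. The floor, size rule and alternatives are given in the text, and the functions were tested on simulated data. Depth does not apply to arrays, and their number limits the precision.

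Symbols of the members came with their IDs. Synthetase symbols were matched to RefSeq with a 1 added (12 genes). The gene table used here pairs no Ensembl ID with a symbol, so further lists fixed by symbol (eIF2 kinases, other ATF4 targets, other synthetases, chaperones, cell type markers) are not analysed here, and the identity of the lines was not checked by markers. All members were named by rule. The members and lists were chosen with earlier results of these data known. Alternatives were a lower floor (25th percentile), a higher floor (75th), none, or the floor on both arrays, centring, a lowess trend (span 0.4), quantile normalization, and sizes of 1.5-fold and 3-fold.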

Additional observations from a re-analysis of the deposited data

How the results depend on the processing

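No paired analysis was possible because each line had 1 array, and no replicate could be left out for the same reason. The number of members past 2-fold upwards was 21 with the lower floor, without any floor and with the floor on both arrays. The shares of all genes compared were then 4.5%, 3.5% and 4.13%, in that order. The number of members was 19 with the higher floor (28 members compared), after centring, after trend subtraction and after quantile normalization. The shares of all genes compared were then 6.04%, 5.21%, 5.19% and 5.18%, in that order. In the last 3 settings SESN2 (0.97, 0.96 and 0.95) and MARS (0.96, 0.95 and 0.95) lay below 1 on the log2 scale, and the other 34 genes kept their side of the size rule. A size of 3-fold gave 7 higher members, against 187 of the 9725 genes compared (1.92%). A size of 1.5-fold gave 29 higher, against 15.8% of the genes compared, and 1 lower (VLDLR), against 11.8%. A size rule changes counts by definition. The median difference of the members compared was 1.16, and it ran from 1.12 to 1.22 over the alternatives. Quantile normalization took the median of all genes compared to -0.007. Dim signal limits NUPR1, STC2 and VLDLR.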
